A study of Mus musculus with 3 samples.

Results

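The genes described here form the TGF-beta, activin and BMP pathway in mouse bone marrow-derived dendritic cells (BMDC), a culture model in which marrow cells are turned into dendritic cells by growth factors. The 47 genes were chosen by name, and each was read from the probe set that names it alone in the platform annotation, or from the one with the highest mean where there were several. This found 46 of the 47, out of 19938 genes measured. The exception was Gdf15, a stress-induced distant member of the family, which had no probe set of its own and was not analysed here. Only Smurf2 had more than 1 probe set.

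There was 1 group, BMDC, with 3 arrays. Marrow of C57BL/6J mice was plated at 2000000 cells per well and cultured for 9 days with GM-CSF and IL-4, both at 20 ng/ml, and all samples shared this treatment. The labels name no mutant, vehicle or other time point, so the data answer which genes of the pathway these cells expressed and how far the arrays differed. Separate mice or cultures are not named for the 3 samples, and every SD is therefore the spread between these samples, which may be technical.

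TGF-beta family ligands are secreted dimers that bring a type II and a type I receptor together. The type I receptor then phosphorylates Smad proteins, Smad2 and Smad3 for TGF-beta and activin and Smad1, Smad5 and Smad9 for BMP, which enter the nucleus with the common partner Smad4. In the dendritic cell lineage TGF-beta1 is known for its need in Langerhans cell development, for restraining maturation and, together with retinoic acid, for the induction of regulatory T cells.

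Values are log2 expression as deposited, and a gene was called above background where each array had it above the 95th percentile of the probe sets for olfactory and vomeronasal receptors, genes that should be silent in these cells. The limits were 5.54, 5.54 and 5.55 in replicates 1, 2 and 3. A stricter limit at the 99th percentile lay at 6.28, 6.24 and 6.33. Probe sets differ in binding strength, so a level is set here only against the limit and against the same gene in the other arrays, never against another gene. In 22 of the 46 members the 3 arrays held exactly the same number. In such cases 1 value is given for all 3 arrays and no SD, since an SD of 0 is no measure of precision. The dendritic cell markers Itgax, H2-Ab1 and Cd74 were above both limits in every array, whereas Flt3, Cd209a and Xcr1 were below background. In all, 8 of 11 dendritic markers (72.7%) and 5 of 7 macrophage markers (71.4%) were called, beside 60.5% of all genes. The macrophage markers Adgre1, Csf1r, Mertk and Mrc1 were above both limits in every array, whereas Cd163 and Vsig4 were below background.

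Of the 46 measured members, 35 (76.1%) were above background in all 3 arrays, and 60.5% of all genes measured passed the same limit. None was above it in only 1 or 2 arrays. At the stricter limit 25 members (54.3%) remained, beside 46.2% of all genes. The design allows no test of these shares, and the member list was drawn up with earlier results of these data known. The members nearest the limit on the upper side were Tgfbr3, by 0.02 log2 units in replicate 3, and Bmp6, by 0.03. On the lower side Ltbp1 stayed 0.01 and Smad9 0.08 under it in the array nearest to it.

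**Figure D1:**
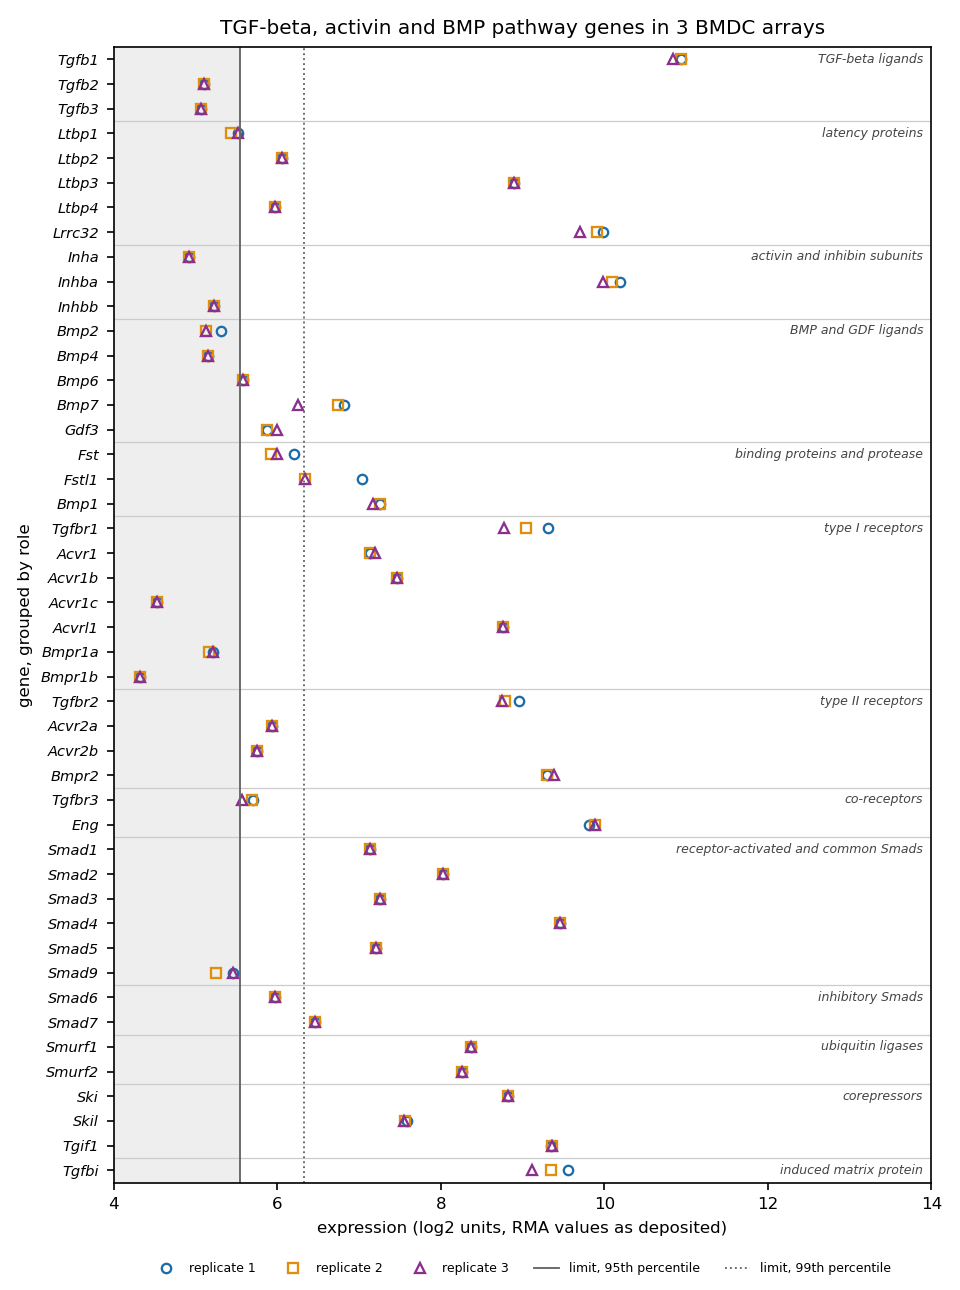
Log2 expression (x axis) of the 46 measured pathway genes (rows, grouped by role) in replicates 1, 2 and 3 (circle, square, triangle), with the highest of the 3 array limits at the 95th (solid line) and 99th percentile (dotted line) of the receptor probe sets and the area below the lowest 95th percentile limit in grey. Tgfb1 and Inhba lie right of both lines, whereas Tgfb2, Tgfb3, Inha, Inhbb, Bmp2 and Bmp4 lie in the grey area.

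The promoters of the listed genes were read where the RefSeq table held them, and some are shown as examples. Tgfbr1 and Tgfbi were lowest in replicate 3, as 64.6% of all genes spanning over 0.25 log2 units were. Inhba was lowest there too but spanned only 0.20 log2 units, and Fstl1 was highest in replicate 1. Bmp7 and Lrrc32, also lowest in replicate 3, are not shown. A link between promoter letters and array differences was not tested. Of the 46 measured members and Gdf15, 34 had an entry. Shown here are the 250 bases before the first listed start of Tgfb1, Inhba, Tgfbr1, Tgfbi and Fstl1, all on the plus strand of GRCm38.p6, the first 2 as the called TGF-beta and activin ligands. They lie at chr7:25686752-25687001, chr13:16011601-16011850, chr4:47352972-47353221, chr13:56609336-56609585 and chr16:37776805-37777054. The Inhba window lies within the gene's span in the RefSeq gene table, which begins at a more upstream start, and the others lie just before the gene's start there. Capitals mark the Smad box (CAGAC or, on the other strand, GTCTG) and the GC-rich element of BMP Smads (GGCGCC, which reads the same on both strands).
Tgfb1: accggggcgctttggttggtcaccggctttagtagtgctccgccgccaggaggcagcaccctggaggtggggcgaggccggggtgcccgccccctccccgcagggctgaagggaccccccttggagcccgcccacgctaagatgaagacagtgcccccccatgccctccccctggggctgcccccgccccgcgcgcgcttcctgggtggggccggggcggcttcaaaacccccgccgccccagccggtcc
Inhba: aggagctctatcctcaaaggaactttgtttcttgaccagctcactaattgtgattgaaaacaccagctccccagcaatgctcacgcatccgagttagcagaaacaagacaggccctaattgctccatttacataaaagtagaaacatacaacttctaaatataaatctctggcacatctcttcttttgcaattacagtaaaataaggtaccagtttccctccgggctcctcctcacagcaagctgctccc
Tgfbr1: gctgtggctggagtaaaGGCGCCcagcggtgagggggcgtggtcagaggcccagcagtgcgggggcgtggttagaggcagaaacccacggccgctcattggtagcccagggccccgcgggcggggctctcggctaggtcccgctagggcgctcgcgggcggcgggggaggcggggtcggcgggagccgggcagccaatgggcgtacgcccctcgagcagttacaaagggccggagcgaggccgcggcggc
Tgfbi: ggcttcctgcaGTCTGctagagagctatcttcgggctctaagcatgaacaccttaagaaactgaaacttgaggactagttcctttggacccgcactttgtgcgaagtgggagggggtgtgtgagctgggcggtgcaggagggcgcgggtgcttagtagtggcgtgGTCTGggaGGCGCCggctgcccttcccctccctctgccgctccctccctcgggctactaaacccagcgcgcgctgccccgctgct
Fstl1: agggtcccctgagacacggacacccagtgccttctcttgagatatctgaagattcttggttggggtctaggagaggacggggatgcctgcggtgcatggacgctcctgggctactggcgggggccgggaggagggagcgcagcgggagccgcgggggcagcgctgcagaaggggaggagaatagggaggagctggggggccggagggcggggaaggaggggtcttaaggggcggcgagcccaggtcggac

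Tgfbi held 2 Smad boxes and 1 GC-rich element that did not overlap, Tgfbr1 1 GC-rich element and no Smad box, and Tgfb1, Inhba and Fstl1 none of these letters in this window. A second listed Tgfbr1 start, with its window at chr4:47385966-47386215, held 1 Smad box and no GC-rich element. A Smad box occurred in 16 of the 34 members (47.1%) and in 42.2% of all 32851 promoter windows of the same length. The GC-rich element occurred in 7 of the 34 (20.6%) and in 9.59% of all windows, and an AP-1 site (TGACTCA or TGAGTCA) in 0 of the 34 and in 4.46% of all. For genes with several starts the first listed one was counted, whereas the share of all windows counts every start. Promoters differ in base composition, and a match is a description of letters, not of binding.

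Of the 3 TGF-beta genes 1 (33.3%), Tgfb1, was above background, beside 60.5% of all genes. It had 10.94, 10.94 and 10.84 in replicates 1, 2 and 3 (mean 10.91 ± 0.06, SD, n = 3), at least 5.29 log2 units over the limit in each array. Tgfb2, which is known from epithelium and heart development, had 5.10 in each array, and Tgfb3, known from palate and lung development, had 5.07. Both lay below background in every array. Replicate 3 had the lowest Tgfb1 value, but the 3 arrays spanned only 0.10 log2 units (1.07-fold).

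TGF-beta is secreted in a latent form that a partner protein holds in the matrix or on the cell surface. Lrrc32, whose product GARP tethers latent TGF-beta to the surface of regulatory T cells and platelets, had 9.98, 9.91 and 9.70 in replicates 1, 2 and 3 (mean 9.86 ± 0.14, SD, n = 3). It was above both limits throughout and lowest in replicate 3. Ltbp3, one of the matrix partners, was above both limits at 8.89 in each array. Ltbp2, at 6.06 in each array after rounding, and Ltbp4, at 5.97, passed the 95th percentile limit but not the stricter one. Ltbp1 had 5.52, 5.44 and 5.52 in replicates 1, 2 and 3 and was not called. Ltbp2 is a matrix protein of elastic fibres that does not bind latent TGF-beta, unlike the other members of its family.

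T cells and platelets are other sources of GARP, and their markers were read in the same arrays. Of 5 measured T cell markers, 4 were above background in every array, and the mean over the list was 7.71, 7.36 and 6.79 in replicates 1, 2 and 3. All 6 megakaryocyte markers were above background, with list means of 7.78, 7.62 and 7.27. At the stricter limit 3 of the 5 T cell and 4 of the 6 megakaryocyte markers remained. Of all genes measured, 60.5% passed the lower limit and 46.2% the stricter one. Both list means were lowest in replicate 3, as Lrrc32 was. This direction was common, with 64.6% of all genes that spanned over 0.25 log2 units lowest there. In the megakaryocyte list the lower mean of replicate 3 came from Pf4 (10.65, 10.39 and 9.59), Ppbp and Vwf. In contrast, Itga2b had 6.33 and Gp9 5.61 in each array, and Treml1 (7.66, 7.73 and 7.75) was highest in replicate 3. Their part in the Lrrc32 signal was not tested, and fewer cells of a type cannot be told apart from less RNA per cell in a bulk sample.

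Of the 3 genes of activin and inhibin subunits 1 (33.3%) was called, beside 60.5% of all genes. Inhba, which encodes the beta A chain of activin A, had 10.19, 10.09 and 9.99 in replicates 1, 2 and 3 (mean 10.09 ± 0.10, SD, n = 3), above both limits in each array. Inhbb, the beta B chain, had 5.22 in each array and Inha, the alpha chain that turns activin into inhibin, had 4.92. Neither was called. Activin A, a dimer of beta A chains, was the only activin or inhibin form with every chain's gene above background.

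Both follistatin-family genes among the members were called, at a limit that 60.5% of all genes passed. Fst, the gene of follistatin, which captures activin, had 6.21, 5.92 and 6.00 in replicates 1, 2 and 3 (mean 6.04 ± 0.15, SD, n = 3). This was above the 95th percentile limit but below the stricter one, with replicate 1 highest. Fstl1, a secreted glycoprotein of connective tissue cells that shares a follistatin-type domain, had 7.03, 6.34 and 6.34 (mean 6.57 ± 0.40, SD, n = 3). Replicate 1 stood clear of the other arrays, and the value of replicate 3 was only just above its stricter limit. Among the other pathway genes, the follistatin-like gene Fstl3, named after its values were seen, had 6.43 in each array and passed both limits.

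Of the 5 measured BMP and GDF ligands 3 (60.0%) were called, near the 60.5% of all genes. Bmp2 had 5.31, 5.12 and 5.12 in replicates 1, 2 and 3, and Bmp4, a regulator of early mesoderm and haematopoiesis, had 5.16 in each array, both below background. Bmp6, which controls iron through hepcidin in the liver, had 5.58 in each array and passed only the lower limit. Gdf3 had 5.88, 5.88 and 6.00 and likewise passed only the lower one. Bmp7, a ligand known from kidney development, had 6.82, 6.75 and 6.25 (mean 6.61 ± 0.31, SD, n = 3) and was above the stricter limit in 2 of 3 arrays. None of the 5 measured genes of this group was above the stricter limit in every array, beside 46.2% of all genes. Bmp1, in spite of its name a metalloproteinase that processes procollagen and the BMP antagonist chordin, was above both limits with 7.26, 7.25 and 7.17 (mean 7.23 ± 0.05, SD, n = 3).

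Type I receptors were called in 4 of 7 cases (57.1%), and these 4 also passed the stricter limit. Of all genes measured, 60.5% passed the lower limit and 46.2% the stricter one. Tgfbr1, the receptor of TGF-beta known as ALK5, had 9.31, 9.04 and 8.77 in replicates 1, 2 and 3 (mean 9.04 ± 0.27, SD, n = 3). Acvr1b, the activin receptor ALK4, had 7.46 in each array, and Acvr1, the receptor ALK2 that serves BMP ligands, had 7.13, 7.13 and 7.20. Acvrl1, the receptor ALK1 for Gdf2 (BMP9) and Bmp10, had 8.76 in each array after rounding. The receptors below background were Bmpr1a (5.21, 5.17 and 5.21), Bmpr1b (4.32 in each) and Acvr1c (4.52 in each). Bmpr1a and Bmpr1b are the classical type I receptors of Bmp2 and Bmp4, and Acvr1c is the nodal receptor ALK7.

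All 4 type II receptor genes were called, and 2 of the 4 also passed the stricter limit. Of all genes measured, 60.5% passed the lower limit and 46.2% the stricter one. Tgfbr2, the partner of Tgfbr1, had 8.96, 8.79 and 8.75 in replicates 1, 2 and 3 (mean 8.83 ± 0.11, SD, n = 3). Bmpr2, the BMP type II receptor, had 9.30, 9.30 and 9.39 (mean 9.33 ± 0.05, SD, n = 3). Both were above the stricter limit throughout. The activin type II receptors Acvr2a, at 5.93 in each array, and Acvr2b, at 5.75, passed the lower limit but not the stricter one.

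Both co-receptor genes were called, and Eng also passed the stricter limit, beside 60.5% and 46.2% of all genes at the 2 limits. Eng, which encodes endoglin, a partner of ALK1 on endothelium and activated macrophages, had 9.81, 9.89 and 9.89 in replicates 1, 2 and 3 (mean 9.86 ± 0.05, SD, n = 3). Tgfbr3, the gene of betaglycan, which presents TGF-beta2 to its receptors, had 5.71, 5.69 and 5.57 and did not pass the stricter limit. Acvrl1 and Eng are best known from endothelium, and of 5 endothelial markers Pecam1 and Cdh5 were above background, neither passed the stricter limit in every array, and Kdr, Tek and Emcn were below background. Their part in the Acvrl1 and Eng signals was not tested. The ALK1 ligand genes Gdf2 (4.86) and Bmp10 (3.58), named after their values were seen, were below background in every array.

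The Smad genes of both branches were called, with 1 exception (5 of 6, 83.3%, beside 60.5% of all genes). Smad2 had 8.03 in each array after rounding, Smad3 7.26 in each, and the common partner Smad4 9.46 in each. On the BMP side Smad1 had 7.14 and Smad5 7.21 in each array, while Smad9 had 5.46, 5.25 and 5.46 and lay below background. These 5 called genes also passed the stricter limit, beside 46.2% of all genes. None of them spanned more than 0.01 log2 units between arrays. In 4 of the 5, however, the 3 values were identical, as in 46.5% of all genes above background, and this is no measure of precision.

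The inhibitors downstream of the receptors were all called, at a limit that 60.5% of all genes passed, beside 46.2% at the stricter one. Of the inhibitory Smads, themselves induced by the pathway, Smad7 was just above the stricter limit at 6.46 in each array, and Smad6, at 5.98, was below it. Both genes of the Smurf ubiquitin ligases, which mark receptors and Smads for degradation, passed both limits, with Smurf1 at 8.37 and Smurf2 at 8.26 in each array. A second Smurf2 probe set averaged 4.39, below background, so the 2 probe sets disagree. The genes of the corepressors that bind Smads on DNA were all above the stricter limit. Ski had 8.82 in each array, Skil 7.59, 7.57 and 7.56, and Tgif1 9.35, 9.36 and 9.36 in replicates 1, 2 and 3. Tgfbi, a matrix protein named for its induction by TGF-beta and made by macrophages, had 9.56, 9.35 and 9.12 (mean 9.34 ± 0.22, SD, n = 3), above the limits in each array.

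Other genes of the pathway were read from a list of 86, of which 81 were measured and 47 (58.0%) were above background in every array, with 35 (43.2%) at the stricter limit. These shares are near those of all genes, 60.5% and 46.2%. Of the 11 measured genes of TGF-beta activation 9 were called, and the same 9 passed the stricter limit. Nrros, which tethers latent TGF-beta1 on macrophages and microglia, had 8.44, 8.45 and 8.44 in replicates 1, 2 and 3. The convertase gene Furin, which cleaves the TGF-beta precursor, had 9.36 in each array. Of the integrin chains, Itgav (9.53), Itgb3 (8.88) and Itgb5 (9.56) were above the limits. Itgb6 (3.84) and Itgb8 (5.39), which pair with Itgav to activate latent TGF-beta, were below background.

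The remaining activation genes are proteases and a matrix protein. Thbs1, thrombospondin-1, which can release TGF-beta from its latent form, had 8.43, 8.35 and 8.04 in replicates 1, 2 and 3 (mean 8.27 ± 0.20, SD, n = 3), lowest in replicate 3. Mmp2, a gelatinase, had 7.24, 6.996 and 6.74 (mean 6.99 ± 0.25, SD, n = 3), and Mmp9 6.73, 6.73 and 6.57, both also lowest there. Mmp14 had 8.89 in each array. Mmp2 was the only gene of the 86 above background in every array that spanned more than 0.5 log2 units.

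Other ligands and antagonists were mostly below background. Of 20 further ligand genes 4 (20.0%) were called and none passed the stricter limit, beside 60.5% and 46.2% of all genes. The 4 were Nodal (5.75), Gdf7 (6.22), Gdf11 (6.02, 6.02 and 5.85 in replicates 1, 2 and 3) and Bmp8a (6.10). Gdf7, Gdf11 and Bmp8a were named after their values were seen. Lefty1 (4.68), Lefty2 (4.37) and Mstn (3.80) were below background. Of 11 extracellular antagonists 3 (27.3%) were called and 2 (18.2%) passed the stricter limit. Twsg1 (8.57, 8.61 and 8.69 in replicates 1, 2 and 3) and Fstl3 passed both limits, and Sost passed only the lower one. Twsg1 and Sost were named after their values were seen. Nog (5.37), Chrd (5.53) and Chrdl1 (4.87), which capture BMP ligands, were below background, and Grem1 had 5.81, 5.07 and 4.95, above it only in replicate 1. The stromal markers Dcn, Sparc, Lox and Bgn were also highest there. The other 8 of the 12 spanned 0.25 log2 units or less, though most of them were highest in replicate 1 too. The part of stromal cells was not tested. Of 7 further receptors and co-receptors 4 (57.1%) were called, near the share of all genes. Among them were the pseudoreceptor gene Bambi (5.95), which blocks signalling, and Rgma (6.64, 6.60 and 6.60), a BMP co-receptor, but not Amhr2 (5.20) or Tdgf1 (5.37).

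Of 19 intracellular regulators 17 (89.5%) were above background and 16 (84.2%) passed the stricter limit, beside 60.5% and 46.2% of all genes, and no test between gene groups was made. Fkbp1a, which holds type I receptors inactive, had 9.94 in each array, Tgfbrap1, a receptor-associated protein, had 7.77, 7.78 and 7.80 in replicates 1, 2 and 3, and Zfyve16, an endosomal protein that binds Smads, 7.57, 7.57 and 7.58. Zfyve9, which encodes the adaptor SARA that brings Smad2 and Smad3 to the receptor, was below background at 5.37.

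Genes known as direct targets of Smads, mostly from other cell types, were called in 10 of 13 measured cases, of which 6 passed the stricter limit. These shares, 76.9% and 46.2%, stand beside 60.5% and 46.2% of all genes, so that at the stricter limit the targets did not stand above genes in general. The Id genes, classical BMP targets that encode inhibitors of basic helix-loop-helix factors, differed. Id2, also a factor required for dendritic cell development, had 11.72, 11.72 and 11.75 in replicates 1, 2 and 3, Id1 had 6.07, 5.99 and 5.99, Id4 had 5.89 in each array, and Id3 was below background at 5.16. Tgm2, transglutaminase 2, had 12.69 in each array. Junb (6.94), Cdkn2b (6.44), Snai1 (6.79, 6.51 and 6.51) and Ccn2 (6.56, 6.35 and 6.35) passed both limits, whereas Hey1 (5.78) and Atoh8 (5.95) passed only the lower one. Snai2 (4.37) and Hamp (4.44) were below background. No sample with the pathway stimulated or blocked was analysed here, so these levels show no response to it.

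**Figure D2:**
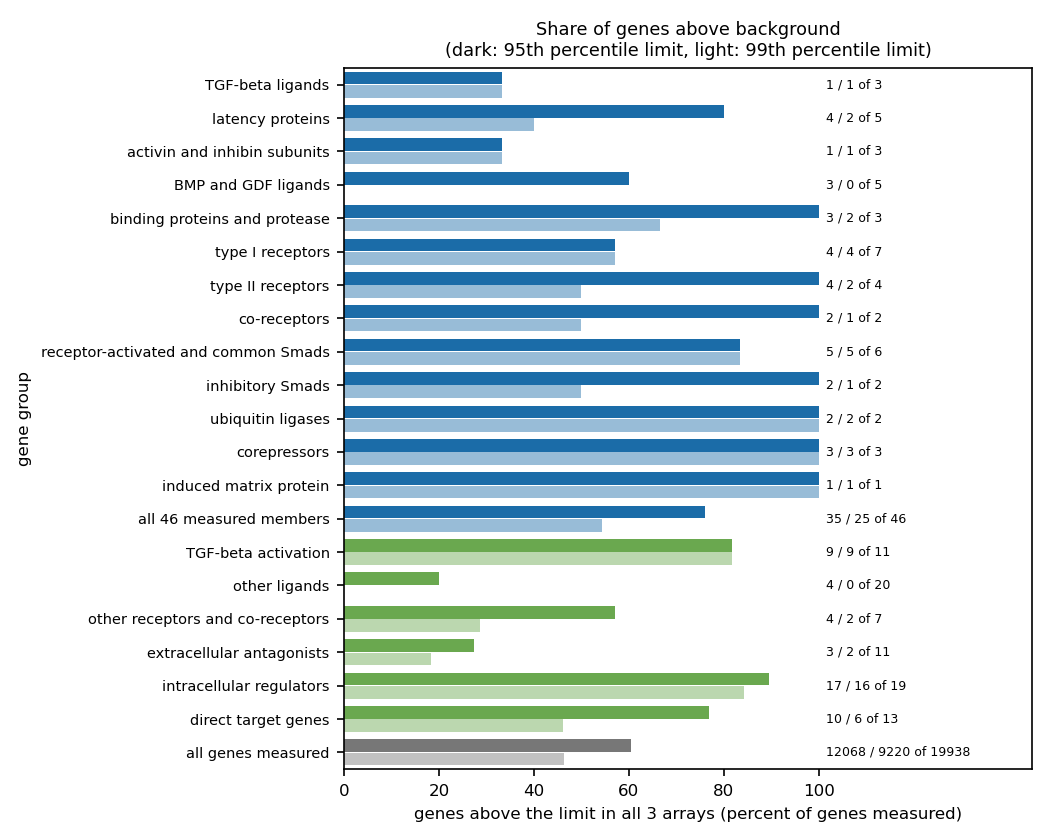
Percent of measured genes above background in all 3 arrays (x axis) by gene group (rows), with dark bars for the 95th and light bars for the 99th percentile limit, and the 2 counts and the number measured at the right. Bars of pathway members are blue, of other pathway genes green and of all genes grey. Of the intracellular regulators 17 of 19 pass the lower limit, and other ligands reach 4 of 20 at the lower and 0 of 20 at the stricter limit.

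In 15 of the 35 called members (42.9%) the 3 values were identical, as in 46.5% of all genes above background, and the median span between the highest and lowest array was 0.0045 log2 units, beside 0.0096 over all genes above background. A span of more than 0.5 log2 units (1.41-fold) was seen in 3 of the 35 (8.57%), a larger share than the 2.61% of all genes above background, but one that rests on 3 genes. These were Fstl1 (0.69, 1.62-fold), Bmp7 (0.57, 1.48-fold) and Tgfbr1 (0.54, 1.45-fold). Without replicate 1 the count was 0 and without replicate 3 it was 1, Fstl1. With 3 arrays in 1 group no test of these differences was possible.

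A total of 6 members called in at least 1 array spanned more than 0.25 log2 units (1.19-fold), the other 3 being Tgfbi (0.44), Fst (0.29) and Lrrc32 (0.28). Replicate 1 was the highest array in all 6, beside 57.5% of all genes that spanned as much, and it was the lowest in none, beside 26.7%. Replicate 3 was the lowest array in 4 of the 6 (66.7%), Bmp7, Tgfbr1, Tgfbi and Lrrc32, and also in 64.6% of all such genes, so this share was near that of genes in general. In Fstl1 replicates 2 and 3 were equal, and in Fst replicate 2 was lowest. Without replicate 3, 3 members remained that spanned as much and were highest in replicate 1, and without replicate 1, 2 that were lowest in replicate 3.

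**Figure D3:**
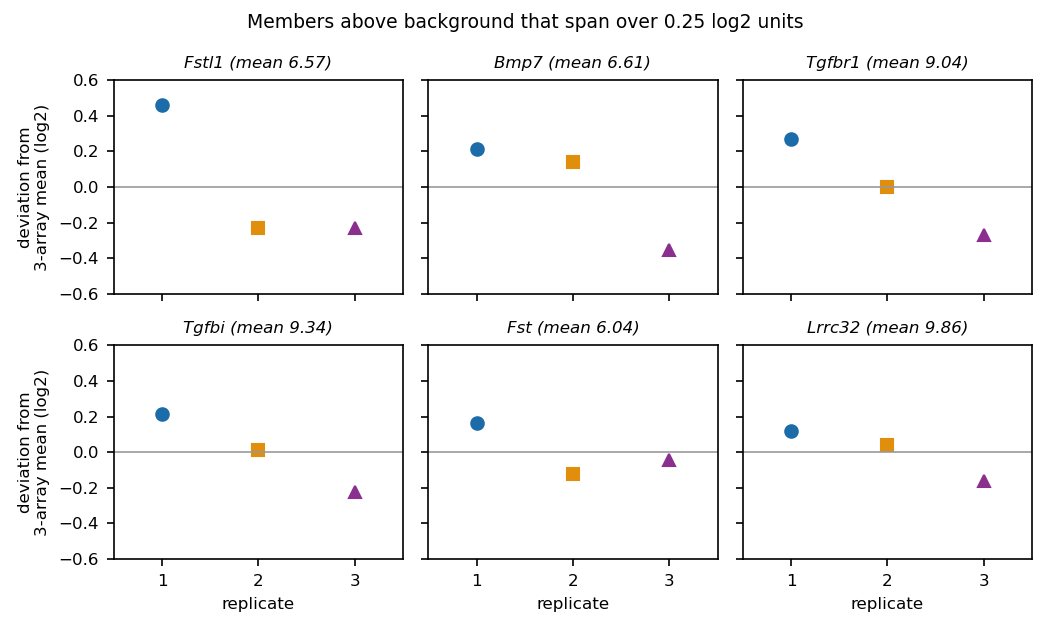
Log2 value minus the mean of the gene over the 3 arrays (y axis, log2 units) in replicates 1, 2 and 3 (x axis) for the 6 called members that spanned over 0.25 log2 units, ordered by span. Replicate 1 is highest in each panel, and replicate 3 is lowest in Bmp7, Tgfbr1, Tgfbi and Lrrc32.

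Markers of other cell types also differed between the arrays, in directions that varied between lists. Over 12 stromal markers the mean was 6.33, 5.34 and 5.40 in replicates 1, 2 and 3. This difference came mostly from 4 genes that were highest in replicate 1 and not above background in every array, Dcn (8.12, 5.36 and 5.41), Sparc (7.64, 5.34 and 5.78), Lox (7.58, 4.47 and 4.63) and Bgn (8.19, 5.33 and 5.31). The other 8 spanned 0.25 log2 units or less. Of these 8, Col1a1, Col1a2, Pdgfra, Pdgfrb, Cxcl12 and Postn were also highest in replicate 1. The 4 list genes above background in every array were Col1a1 (6.94, 6.69 and 6.76), Col1a2 (6.53, 6.36 and 6.36), Col3a1 (6.10 in each) and Pdgfra (5.71, 5.59 and 5.59). Pdgfrb (5.55, 5.38 and 5.38) was above background only in replicate 1, and Lum, Cxcl12 and Postn were below it in every array. Fstl1 and Fst were also highest in replicate 1, as were all 6 members that spanned over 0.25 log2 units. So were 57.5% of all genes that spanned as much. Over 6 NK cell markers the mean was 7.87, 7.67 and 7.14, with 4 of the 6 above background and Ncr1 and Klrd1 below it, and over 4 markers of dividing cells, all above background, 8.13, 7.82 and 7.23. Of 6 neutrophil markers (6.50, 6.30 and 5.36) and 6 mast cell and basophil markers (6.13, 6.24 and 5.24), 2 each (33.3%) were above background in every array, beside 60.5% of all genes. The lower neutrophil mean of replicate 3 came mostly from Ly6g (6.73, 6.80 and 4.86), Lcn2 (7.98, 6.69 and 5.12) and Retnlg (7.35, 7.11 and 5.55), all below background there. S100a8 (5.88, 5.78 and 5.56) changed less, Mpo had 5.63, 5.99 and 5.63, and Elane had 5.42 in each array. Of the mast cell and basophil markers only Kit (5.22 in each array) was not lowest in replicate 3. All these lists except the stromal one were lowest in replicate 3, and the mast cell and basophil list was highest in replicate 2. Of all genes above background in at least 1 array that spanned over 0.25 log2 units, 64.6% were lowest in replicate 3. Macrophage markers (8.26, 8.20 and 8.13) and osteoclast markers (7.56, 7.56 and 7.46) differed less, with 5 of 7 and 3 of 5 above background. Of 3 erythroid markers (5.31, 5.31 and 5.33) 1 was above background, and their mean was highest in replicate 3. The dendritic markers had means of 8.75, 8.81 and 8.74. Among them H2-Ab1, Irf4 and Irf8 were highest in replicate 3, whereas Ccr7 and Flt3 were lowest there. The part of these cells in the differences of Fstl1, Fst, Bmp7, Tgfbr1, Tgfbi and Lrrc32 was not tested.

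**Figure D4:**
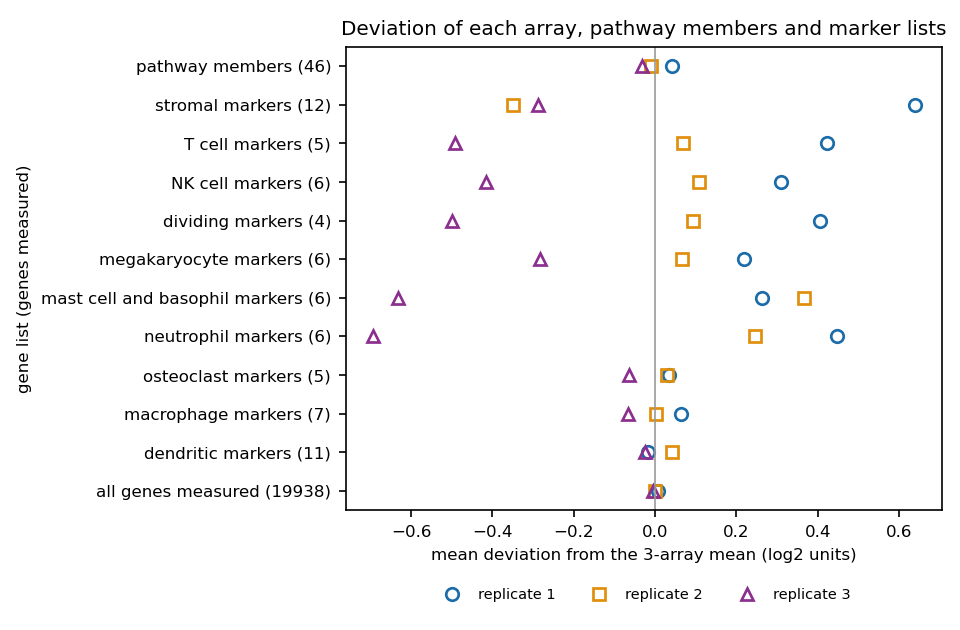
Average difference of an array from the mean of all 3 (x axis, log2 units) over the 46 measured pathway members, over marker lists of cell types and over all genes (rows, number of measured genes in brackets), for replicates 1, 2 and 3 (circle, square, triangle). The pathway members lie at 0.04, -0.01 and -0.03, the stromal markers at 0.64, -0.35 and -0.29 and the T cell markers at 0.42, 0.07 and -0.49.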

How the data were processed

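Total RNA of 3 BMDC samples, 150 ng each, was amplified, biotin-labelled and run on an Affymetrix array for each sample, per the labels' protocols. The authors deposited log2 expression values. The submitters' processing notes name RMA, a method that corrects background, quantile normalizes arrays and summarizes probes by median polish. The software behind it and its version are not given in the sources used here. The array medians were 5.91, 5.91 and 5.91, and the values were not centred.

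Of 35556 probe sets, 21789 name 1 gene in the platform annotation of 2016 and 1621 name several, which were not used. The symbols of all 46 measured members were the same in the RefSeq gene table (GRCm38.p6) through their Entrez identifiers. The background limit rests on 1210 receptor probe sets. In 44.8% of all probe sets the 3 values were identical. Pearson's r between arrays, across probe sets that are not independent replicates, was 0.994 to 0.996. Counts, spans, means and SDs were computed in Python 3.11.15 with pandas 2.3.3 after the functions were tested on simulated data. No test was run, because the 3 arrays form 1 group, and their number limits the precision of every value.

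The members and lists were chosen with earlier results of these data known. All members are accounted for. Of the other pathway genes, the rule named the groups of TGF-beta activation and direct targets, genes above background spanning over 0.5 log2 units, and the first 4 measured of each further group; of the markers, the list means and defining genes. Alternatives covered the limit, the call, the choice of probe set, centring, renormalization, the span and leaving out each array. Counts of members highest in replicate 1 and of direct targets were added after seeing the data.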

Additional observations from a re-analysis of the deposited data

How the results depend on the processing

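The count of 35 members above background was the same, and held the same genes, with the call on the mean of the arrays, the mean of all probe sets of a gene, each array centred on its median, renewed quantile normalization, and without any 1 replicate. It changed only with the limit at the 99th percentile, which removed Acvr2a, Acvr2b, Bmp6, Bmp7, Fst, Gdf3, Ltbp2, Ltbp4, Smad6 and Tgfbr3 and left 25. The direct target genes called were 10 at the lower limit and 6 at this one. The other pathway genes called ranged from 35 at this limit to 49 with the call on the mean or without replicate 3, against 47 as reported.

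The counts of members that differ between arrays are small and depend on single arrays. Of 3 that spanned over 0.5 log2 units, between 0 and 3 did so when 1 replicate was left out. At the 99th percentile limit it was 2. With the span set at 1 log2 unit the count was 0, and at 0.25 it was 6. The count lowest in replicate 3, 4 as reported, was 5 with arrays centred, 2 without replicate 1 and 5 without replicate 2. The count highest in replicate 1, 6 as reported, was 5 at the 99th percentile limit, 5 without replicate 2 and 3 without replicate 3. The count lowest in replicate 1 was 0 under every alternative run. Signal over background limits the calls near 5.5 log2 units, where a small change of the limit moves a gene across it. Without replicate 3 no lowest in replicate 3 can be counted, nor a lowest or highest in replicate 1 without replicate 1. No paired analysis was possible because there is only 1 group.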

Other observations

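Langerhans cells, the dendritic cells of the epidermis, are the subset whose development is known to need TGF-beta1, and a list of 5 of their genes was read beside the pathway. Runx3, a transcription factor that acts downstream of TGF-beta in these cells, was above both limits at 9.13 in each array, and Axl, a receptor kinase induced by TGF-beta during their differentiation, at 10.08, 9.97 and 9.83 in replicates 1, 2 and 3 (mean 9.96 ± 0.12, SD, n = 3). The defining markers Cd207, which encodes langerin, and Epcam were below background at 4.68 and 4.63 in each array. Itgae, an integrin chain that TGF-beta induces in other cells, was below it too at 5.12, 5.12 and 5.09. Runx3 is also expressed by lymphocytes and Axl by macrophages.

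Different probe sets often held the same 3 numbers. Of the 46 measured members, 17 shared all 3 values with at least 1 other probe set of the table, 10 of them above background and 7 not. Over all genes measured this was so in 45.5% of cases, in 29.2% of those above background and in 70.7% of the rest. Bmp4, the target gene Id3 and the endothelial marker Kdr all had 5.15709 in each array, and Nog, Tdgf1 and Zfyve9 all had 5.36974. These genes were picked after their values were seen. The cause was not tested.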
